A study of Mus musculus with 6 samples.

Results

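The interferon regulatory factors (IRFs) are transcription factors that share a DNA-binding domain, and 8 of their genes, Irf1, Irf2, Irf3, Irf4, Irf5, Irf7, Irf8 and Irf9, were followed here in macrophages grown from mouse bone marrow monocytes. They were chosen by gene symbol, by a rule that uses no measured value but was written with earlier results of these data known, and make up 8 of the 24411 genes listed in the data. All 8 were among the 11692 genes with enough counts to test.

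The series compared macrophages grown from a pair of monocyte subsets of mice of the inbred strain C57BL/6. Sorting had divided bone marrow monocytes into LFA1-lo Itgam-lo and LFA1-hi Itgam-hi cells, LFA1 being a leukocyte adhesion receptor and Itgam a chain of another receptor of the same integrin class. Both subsets were then cultured for 7 days with 20 ng/ml of macrophage colony-stimulating factor (M-CSF) and 10% serum, with fresh medium on day 4, and RNA was taken on day 7. Each subset gave 3 libraries of RNA depleted of ribosomal RNA, called LFA1-lo and LFA1-hi macrophages below after the sort that preceded the culture. The labels name no genetic change and no interferon or microbial stimulus in either group. It is not stated if the 3 libraries per group are different animals or cultures. The p-values therefore cover only the spread among these libraries, which may be technical.

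IRF proteins bind DNA elements built around repeated GAAA letters. IRF3, IRF5 and IRF7 are held in the cytoplasm until kinases downstream of sensors of viral and bacterial molecules phosphorylate them, and IRF3 and IRF7 then switch on the interferon genes. Secreted interferon acts back through its receptors: type I interferon brings IRF9 and STAT2 into the complex ISGF3, which turns on interferon-stimulated genes, and interferon-gamma raises IRF1. IRF8 and IRF4 bind DNA weakly alone and work with partners such as PU.1, and IRF8 is a main factor of monocyte and macrophage development.

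The summed counts of the libraries ran from 15191262 to 17614509, and 13248 to 13585 genes had a count above 0. Log2 CPM (counts brought to 1000000 per library with TMM factors) correlated at 0.969 to 0.979 between LFA1-lo libraries and at 0.984 to 0.988 between LFA1-hi libraries, so the LFA1-lo libraries varied more. The 10 macrophage markers examined were detected in every library, and their summed level was 18446 to 23982 CPM in LFA1-lo and 14117 to 16497 CPM in LFA1-hi, with 7 of the 10 called lower in LFA1-hi. Among defining markers of other cells, Cd3e, Cd3d and Cd3g (T cells), Pax5 (B cells), Flt3 (conventional dendritic cells) and Ncr1 (NK cells) were at 0 in all 6 libraries. The conventional dendritic cell list summed to 46.2 to 231 CPM in LFA1-lo and 108 to 275 CPM in LFA1-hi, nearly all of it Itgax, which macrophages also express. The plasmacytoid list summed to 178 to 221 CPM in LFA1-lo and 140 to 143 CPM in LFA1-hi, nearly all of it Bst2 and Tcf4. Of these, Tcf4 was called lower (log2 fold change -0.79, edgeR adjusted p = 0.00136), while Klk1 and Ly6d were at 0. The B cell list summed to 5.07 to 9.57 CPM in LFA1-lo and 11.8 to 17.5 CPM in LFA1-hi, with 1 of 2 tested markers called higher. The T cell list summed to 3.34 to 5.23 CPM in LFA1-lo and 0.112 to 0.615 CPM in LFA1-hi, nearly all of it Cd4 in LFA1-lo, and the mast cell and basophil list to 1.37 to 6.83 and 0.955 to 1.62 CPM. The 1 T cell marker tested was called lower (log2 fold change -4.80), as was 1 of 2 tested mast cell and basophil markers. The part of these cells in the results below was not tested.

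The start regions of the genes are shown first, because the elements known to answer to interferon-gamma, to IRFs and to IRF8 with PU.1 can be read in them. The sequences are from RefSeq (GRCm38.p6) and lie within the 250 bases before the transcription start, all on the plus strand and 5′ to 3′. Capitals mark every match to 3 motifs, searched on both strands: GAS (TTCNNNGAA, the interferon-gamma activated site), the ISRE core (GAAA, any 2 bases, GAAA, bound by IRF proteins and ISGF3) and EICE (GGAA, any 2 bases, GAAA, bound by PU.1 with IRF8 or IRF4). Irf1 is shown for its GAS match at chr11:53769764-53770013, Irf8 for a pair of them at chr8:120736108-120736357, Irf2 for overlapping ISRE and EICE matches in the 30 bases at chr8:46739495-46739524, and Irf4, the gene with the largest change, for having no match at chr13:30748983-30749225.
Irf1: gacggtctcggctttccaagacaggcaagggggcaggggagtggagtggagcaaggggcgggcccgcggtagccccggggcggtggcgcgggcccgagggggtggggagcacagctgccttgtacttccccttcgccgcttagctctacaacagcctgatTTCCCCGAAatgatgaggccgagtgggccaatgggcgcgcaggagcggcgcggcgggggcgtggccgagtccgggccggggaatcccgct
Irf8: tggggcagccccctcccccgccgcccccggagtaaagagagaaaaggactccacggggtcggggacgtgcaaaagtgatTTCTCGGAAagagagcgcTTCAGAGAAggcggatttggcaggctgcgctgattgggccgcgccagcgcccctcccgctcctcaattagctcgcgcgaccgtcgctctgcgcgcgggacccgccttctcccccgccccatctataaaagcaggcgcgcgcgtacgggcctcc
Irf2: tggGGAAGTGAAAATGAAAttgacttTTCC
Irf4: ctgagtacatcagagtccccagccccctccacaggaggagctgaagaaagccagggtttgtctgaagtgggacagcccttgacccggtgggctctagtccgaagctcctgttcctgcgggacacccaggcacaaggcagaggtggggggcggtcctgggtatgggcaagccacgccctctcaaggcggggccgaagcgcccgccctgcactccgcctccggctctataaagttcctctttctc

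In the Irf1 sequence the capitals are a single GAS match at bases -90 to -82 from the start. In Irf8 they are GAS matches at -171 to -163 and -153 to -145. In the Irf2 stretch the run of capitals joins an EICE match at -247 to -238 with an ISRE core at -241 to -232, and the last capitals are the first letters of a GAS match at -224 to -216 that runs past the stretch. Among 32851 RefSeq windows of the same length, 7.02% held a GAS match, 2.98% an ISRE core and 2.30% an EICE match. The windows of Irf3, Irf4, Irf5, Irf7 and Irf9 held none of the 3, nor did the second windows of Irf1 and Irf8, which have more than 1 start in RefSeq. The Irf5 window, chr6:29526375-29526624, lay wholly inside the gene, which begins at 29526130, so the bases before the gene were not searched. The Irf7 window, chr7:141266425-141266674, lay partly inside the gene, which ends at 141266499. The TATA box letters TATAAA, found in 12.4% of windows, stood in Irf4 at -26 to -21, in Irf7 at -29 to -24 and in Irf8 at -31 to -26. The NF-kB motif, in 7.25% of windows, stood in Irf1 at -13 to -4 and in Irf2 at -17 to -8, and the PU.1 core GAGGAAGT, in 2.44%, was in no member's window. These matches are letters only, and binding was not measured.

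Of the 8 genes, 6 were lower in LFA1-hi than in LFA1-lo macrophages and 0 were higher, at an adjusted p (edgeR's quasi-likelihood test, Benjamini-Hochberg over all tested genes) under 0.05. The 6 were Irf1, Irf2, Irf3, Irf4, Irf5 and Irf8. Across all tested genes 31.7% were called, 15.6% lower and 16.1% higher. At an unadjusted p under 0.05, 7 members were lower and 0 higher with edgeR, and DESeq2 and limma voom also called 0 higher. The 31.7% is not the background at this threshold, where more genes pass. Of all tested genes, 33.2% had a smaller edgeR p than Irf9, the weakest of the 7, and 48.4% than Irf7, which missed it. The log2 fold change was below 0 for all 8 members, with a median of -0.44, against a median of -0.0047 over all tested genes, of which 50.4% were below 0. The median of the 10 macrophage markers was -0.43. CPM did not overlap between the groups for 7 of the 8 members, the exception being Irf7, against 47.8% of all tested genes. In RNA from whole cultures, fewer cells of a type and less RNA per cell cannot be told apart.

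**Figure D1:**
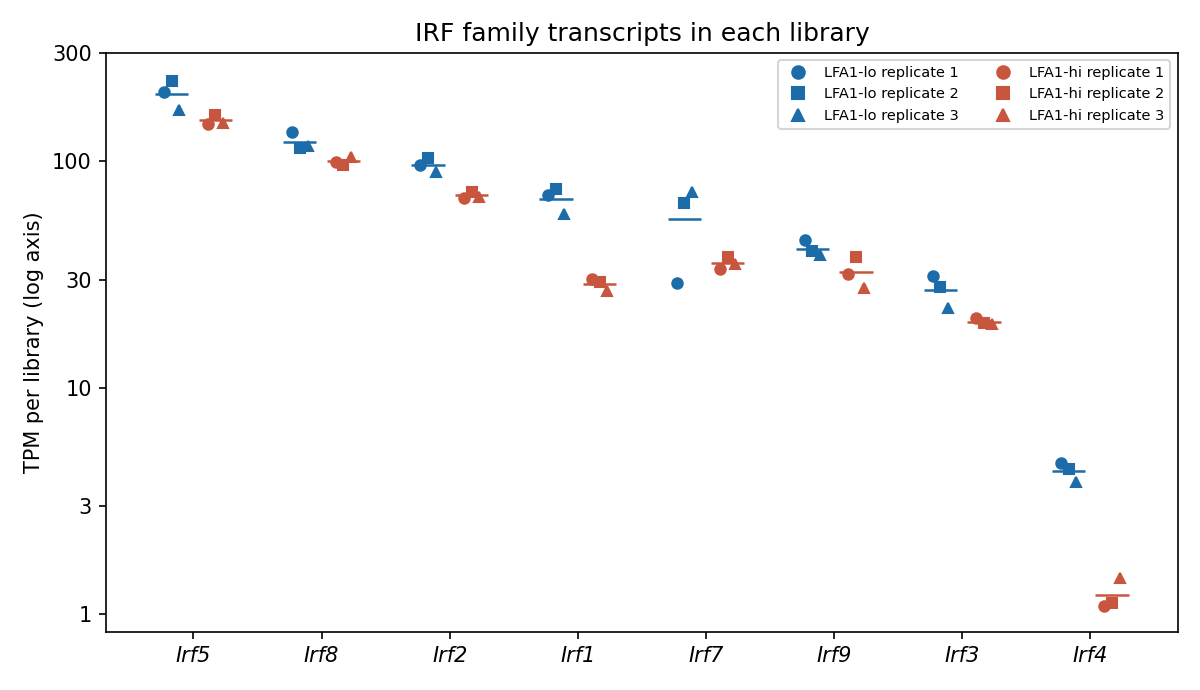
TPM (transcripts scaled for length to a library sum of 1000000, log axis) of the 8 IRF genes in each of the 6 libraries, with symbols for replicates and a line at the mean of each group. Irf1 and Irf4 are the most separated between groups, and the LFA1-lo replicate 1 point of Irf7, at 28.8, lies below all 3 LFA1-hi points.

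Irf4 and Irf1 changed most and were the only members called lower by more than 2-fold, as 3.81% of all tested genes were called. Irf4, the family member tied to alternative macrophage activation and to lymphocytes, was the scarcest of the 8. Its TPM was 4.64, 4.39 and 3.85 in LFA1-lo and 1.09, 1.12 and 1.45 in LFA1-hi, values being given for replicates 1, 2 and 3 in that order here and below. The counts behind these were 189, 175 and 161 in LFA1-lo and 50, 43 and 66 in LFA1-hi. The lowest LFA1-lo library was thus far above the highest LFA1-hi library. The log2 fold change was -1.78 (SE 0.21, edgeR adjusted p = 0.000342), which left 29.02% of the LFA1-lo level (95% interval of the ratio, 0.209 to 0.403). The gene lies at chr13:30749233-30766981 on the plus strand of GRCm38.

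Irf1, the factor that interferon-gamma induces and that activates antigen-processing and guanylate-binding protein genes, fell next. Its TPM was 70.5, 74.9 and 58.4 in LFA1-lo and 30.1, 29.2 and 26.7 in LFA1-hi. All 3 LFA1-hi libraries lay close together and well below every LFA1-lo library. This was a log2 fold change of -1.23 (SE 0.12, edgeR adjusted p = 0.000116), with 42.7% of the LFA1-lo level left (95% interval of the ratio, 0.355 to 0.514). Only 1.61% of tested genes had a smaller p, against 3.14% for Irf4. Irf1 lies at chr11:53770014-53778374 on the plus strand.

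Irf2, which binds the same elements as Irf1 and is known mainly as its repressor, fell less. Its TPM was 95.7, 103.6 and 89.4 in LFA1-lo and 69.0, 72.8 and 69.7 in LFA1-hi, without overlap. On the log2 scale the fold change was -0.43 (SE 0.09, edgeR adjusted p = 0.00574). As Irf1 fell by more, the ratio of Irf1 to Irf2 TPM went from 0.737, 0.723 and 0.653 in LFA1-lo to 0.436, 0.401 and 0.384 in LFA1-hi. These ratios did not overlap between the groups. Irf2 lies at chr8:46739745-46847458 on the plus strand and shares bases with 2 long noncoding genes that are not among the listed genes.

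The calls for Irf1, Irf2 and Irf4 held at a threshold of 0.01 and without any single library. Those of Irf3, Irf5 and Irf8 did not: each was lost without LFA1-lo replicate 1 and without each LFA1-hi library.

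Among the factors that sensor kinases activate, Irf3 is the constitutive one that starts the interferon-beta response. Its TPM was 31.0, 27.8 and 22.5 in LFA1-lo and 20.2, 19.3 and 19.03 in LFA1-hi. The groups did not overlap, though LFA1-lo replicate 3 came near the LFA1-hi libraries. With all libraries the log2 fold change was -0.45 (SE 0.14, edgeR adjusted p = 0.0355). Without LFA1-lo replicate 1 the adjusted p was 0.125, and without LFA1-hi replicates 1, 2 and 3 it was 0.0828, 0.128 and 0.115. Irf3 lies at chr7:44997648-45002848 on the plus strand.

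Irf5, which drives inflammatory cytokine genes downstream of Toll-like receptors, was the most abundant member per length. Its TPM was 201, 226 and 168 in LFA1-lo and 146, 160 and 147 in LFA1-hi, so the lowest LFA1-lo library stood just above the highest LFA1-hi library. The log2 fold change was -0.38 (SE 0.11, edgeR adjusted p = 0.0321). The adjusted p was 0.0801 without LFA1-lo replicate 1 and 0.114, 0.0921 and 0.109 without LFA1-hi replicates 1, 2 and 3, and without LFA1-lo replicate 2 the call held with a log2 fold change of -0.25. Irf5 lies at chr6:29526130-29541869 on the plus strand and shares 1043 bases with Tnpo3 on the other strand. Whether reads were counted by strand is not given in the sources used here. Tnpo3 had 73.5 to 77.2 CPM in LFA1-lo and 79.0 to 87.6 CPM in LFA1-hi, and was not called (log2 fold change 0.15, edgeR adjusted p = 0.188).

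Irf7, the inducible factor that amplifies the type I interferon response and is itself an interferon-stimulated gene, did not pass the test. Its TPM was 28.8, 65.4 and 73.0 in LFA1-lo and 33.6, 37.8 and 35.3 in LFA1-hi. LFA1-lo replicates 2 and 3 were well above all LFA1-hi libraries, and LFA1-lo replicate 1 was below all of them. The log2 fold change was -0.65 (SE 0.32, 95% interval -1.40 to 0.11, edgeR adjusted p = 0.173). Without LFA1-lo replicate 1 it was -0.97 (adjusted p = 0.000690), the only 1 of 19 alternatives in which Irf7 was called, and the adjusted p over these ran up to 0.482. Irf7 lies at chr7:141263183-141266499 on the minus strand.

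Irf8, the partner of PU.1 in macrophage gene control, was the second most abundant member. Its TPM was 134, 115 and 116 in LFA1-lo and 99.5, 96.3 and 103.9 in LFA1-hi. The groups did not overlap, but the difference was the smallest of the 8, with a log2 fold change of -0.26 (SE 0.09, edgeR adjusted p = 0.0446). The adjusted p was 0.157 without LFA1-lo replicate 1 and 0.123, 0.192 and 0.0855 without LFA1-hi replicates 1, 2 and 3. It was 0.106 with scaling by library totals alone, 0.0538 with upper quartile factors and 0.0564 without a filter on low counts. Irf8 lies at chr8:120736358-120756694 on the plus strand.

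Irf9, the DNA-binding subunit of ISGF3, missed the threshold. Its TPM was 44.7, 40.0 and 38.6 in LFA1-lo and 31.7, 37.9 and 27.6 in LFA1-hi, with LFA1-hi replicate 2 close to the lowest LFA1-lo library. The log2 fold change was -0.32 (SE 0.11, 95% interval -0.58 to -0.07, edgeR adjusted p = 0.0568). It was called with DESeq2 (adjusted p = 0.0477) and when LFA1-lo replicate 2 (0.0352) or 3 (0.0473) was left out. Set against Irf1, Irf9 stood at 0.633, 0.534 and 0.661 times its TPM in LFA1-lo and at 1.05, 1.30 and 1.03 times in LFA1-hi. The gene lies at chr14:55603985-55610030 on the plus strand.

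**Figure D2:**
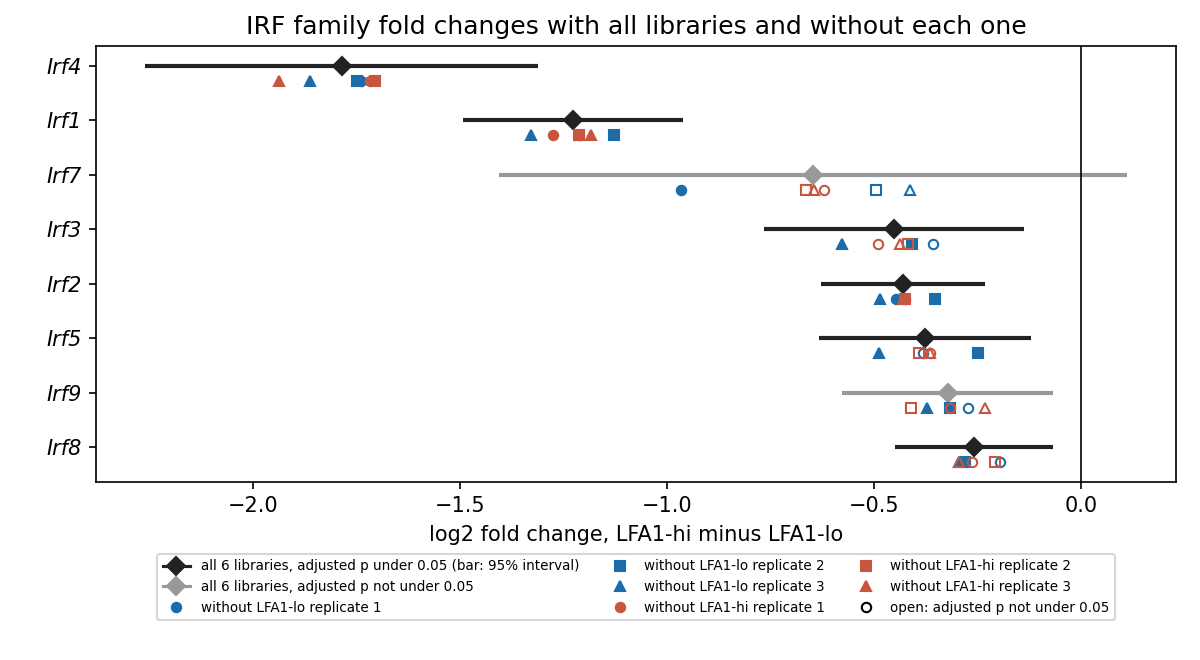
Log2 fold change (LFA1-hi minus LFA1-lo) of each IRF gene with all 6 libraries (diamonds, bars are 95% intervals) and without each library in turn (small symbols, open where the adjusted p is not under 0.05). Irf4, Irf1 and Irf2 have filled symbols throughout, while Irf7 has a filled symbol only at -0.97, without LFA1-lo replicate 1.

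Per length, the order of the family was nearly the same in both groups. Mean TPM in LFA1-lo was 198 ± 28.9 for Irf5, 122 ± 10.8 for Irf8 and 96.2 ± 7.11 for Irf2 (SD, n = 3). Irf1 (67.9 ± 8.57), Irf7 (55.7 ± 23.6) and Irf9 (41.1 ± 3.17) followed, then Irf3 (27.1 ± 4.27) and Irf4 (4.29 ± 0.404). Neighbours in this order did not overlap, except Irf1 with Irf7 and Irf7 with Irf9. In LFA1-hi the means were 151 ± 7.74 for Irf5, 99.9 ± 3.80 for Irf8 and 70.5 ± 1.99 for Irf2. There Irf7 (35.6 ± 2.14) and Irf9 (32.4 ± 5.16) stood before Irf1 (28.7 ± 1.74), with overlap between Irf7 and Irf9 and between Irf9 and Irf1, and Irf3 (19.5 ± 0.604) and Irf4 (1.22 ± 0.200) were last. Irf1 thus moved from the fourth place to the sixth.

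The summed TPM of the 8 genes was 610, 657 and 570 in LFA1-lo and 431, 454 and 431 in LFA1-hi. Irf1 made up 11.1% ± 0.721 of this sum in LFA1-lo and 6.53% ± 0.403 in LFA1-hi (SD, n = 3), while Irf2 made up 15.7% ± 0.0523 and 16.1% ± 0.0937. The ratio of Irf4 to Irf8, partners of PU.1 with separate roles, was 0.0346, 0.0383 and 0.0332 in LFA1-lo and 0.0110, 0.0116 and 0.0140 in LFA1-hi. Both shifts separated the groups without overlap. The ratio of Irf7 to Irf3, the inducible to the constitutive factor, overlapped, at 0.930, 2.36 and 3.24 in LFA1-lo and 1.66, 1.96 and 1.85 in LFA1-hi. The transcript length weighted by isoform moves only when isoforms of unlike length are used, so a steady length does not show a steady isoform mix. Across the 6 libraries it ran from 2133 to 2138 bases for Irf1 and from 1803 to 1828 bases for Irf7. It ran from 2039 to 2066 bases for Irf3, 2194 to 2199 for Irf5, 2847 to 2856 for Irf8 and 2431 to 2478 for Irf9.

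Irf7 also stood apart in how it varied across the 6 libraries. Its log2 CPM correlated with those of the other members at 0.086 to 0.526 (Pearson), while the other 7 correlated with one another at 0.623 to 0.979, the highest being Irf1 with Irf2. These coefficients are over 6 libraries that share the split into groups. Among 8318 genes with a mean of at least 10 CPM, those most like Irf1 were Pcp4l1 and Lrmp (both 0.999), and those most like Irf4 were Tk2 and Lix1l (both 0.998). For Irf2 they were Sppl2a and Dcstamp (both 0.999), for Irf3 Panx1 (0.995) and Bcl6 (0.994), for Irf5 Tnfrsf11a (0.996) and Zfp800 (0.995), and for Irf8 Rhbdf2 (0.996) and Eml4 (0.993). Such values are common in these data: 478 genes exceeded 0.95 with Irf1, 396 with Irf2, 529 with Irf4 and 139 with Irf5. Fewer did with Irf3 (72), Irf8 (67), Irf9 (16) and Irf7 (9).

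The genes around the family were described by lists of known partners, activators, regulators and targets, by counts and medians and without a test of a list. Beside these counts stand the shares over all tested genes: 15.6% called lower, 16.1% called higher and 47.8% with CPM not overlapping between the groups. Of 34 list genes taken by a rule of size, 23 kept their call without any single library, and those of the others that are named are marked where they appear. The numbers of list genes higher were small and moved with single libraries. Without LFA1-lo replicate 2 they were 4 instead of 1 for IRF4 and alternative activation, 3 instead of 1 for the activators and for targets of IRF1, 2 instead of 1 for targets of IRF8 with PU.1, and 1 instead of 0 for the receptor genes and for targets of ISGF3 and IRF7. Leaving out any LFA1-hi library gave 0 higher for IRF4 and alternative activation and for targets of IRF5, as did leaving out LFA1-lo replicate 1 for the former and LFA1-lo replicate 3 for the latter. For the partners it was 0 without LFA1-hi replicate 1 or 2. For corepressors and other regulators it was 1 instead of 2 without LFA1-lo replicate 1 or without LFA1-hi replicate 2 or 3.

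The interferon genes themselves gave almost no reads. Of 21 listed, including Ifnb1, Ifng and the Ifna genes, 18 had 0 counts in all 6 libraries, and none had enough counts to test. For a gene at 0, the upper limit that this allows is 3 counts, or 0.170 to 0.197 CPM depending on the library, and it covers counting error only. The counts seen were 9 of Ifnk in LFA1-lo replicate 1 and 4 each in LFA1-hi replicates 2 and 3, 1 of Ifna13 in LFA1-lo replicate 2 and 5 of Ifnz in LFA1-lo replicate 3.

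Of 13 interferon receptor and JAK-STAT genes, 10 were lower in LFA1-hi and 0 higher (median -0.42), and with DESeq2 11 were lower. Ifnar1, a chain of the type I interferon receptor, fell from 321, 299 and 295 CPM to 187, 190 and 189 CPM (log2 fold change -0.69, SE 0.07, edgeR adjusted p = 0.000154). Ifngr1, the ligand-binding chain for interferon-gamma, fell from 275, 195 and 228 CPM to 114, 108 and 104 CPM (log2 fold change -1.10, SE 0.12, edgeR adjusted p = 0.000242). Neither overlapped between the groups, as 47.8% of all tested genes did not. Stat2, the ISGF3 subunit, was called at a log2 fold change of -0.62 (edgeR adjusted p = 0.0116, but 0.056 without LFA1-hi replicate 3). The number lower in the list was 6, 6 and 5 without LFA1-hi replicates 1, 2 and 3.

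Of 24 kinases, adaptors and sensors that activate IRF3, IRF5 or IRF7, 7 were lower and 1 was higher (median -0.23). Tlr9, the endosomal sensor of unmethylated DNA, fell from 21.2, 27.1 and 30.4 CPM to 5.87, 5.29 and 4.25 CPM (log2 fold change -2.35, SE 0.19, edgeR adjusted p = 4.77e-05). Mb21d1, which encodes the cytosolic DNA sensor cGAS, rose from 13.1, 13.7 and 10.6 CPM to 26.8, 23.1 and 25.6 CPM (log2 fold change 1.02, SE 0.14, edgeR adjusted p = 0.000752). The endosomal and the cytosolic DNA sensor thus differed in direction. Ikbke, an IRF3 and IRF7 kinase, fell by 0.92 on the log2 scale (edgeR adjusted p = 0.000835). Ddx58, the RNA sensor RIG-I, fell by 0.94 (edgeR adjusted p = 0.00784, but 0.0649 without LFA1-lo replicate 2). The number lower was 4 without LFA1-hi replicate 2 or 3.

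Of 13 tested partners in DNA binding, 6 were lower and 1 was higher (median -0.43). Junb and Jund, AP-1 subunits that pair with BATF proteins beside IRF4 and IRF8, fell by 1.42 and 0.84 on the log2 scale (edgeR adjusted p = 0.000613 and 0.00194). Junb was at 163, 188 and 113 CPM in LFA1-lo and 62.3, 54.0 and 57.6 CPM in LFA1-hi. The number lower was 3 without LFA1-hi replicate 3. Of 15 corepressors and other regulators, 3 were lower and 2 higher (median -0.21), near the shares over all tested genes (15.6% and 16.1%). Irf2bp2, a corepressor that binds IRF2, fell by 0.65 on the log2 scale (edgeR adjusted p = 0.00104), and the acetyltransferases Ep300 and Crebbp, which IRF proteins recruit, fell by 0.43 and 0.39 (0.00186 and 0.00381). Trim28, a corepressor, rose by 0.42 (0.00244).

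Of 20 tested targets of IRF1, 10 were lower and 1 higher (median -0.46). Gbp2, a guanylate-binding protein of cell-autonomous defence, fell from 25.5, 46.6 and 32.8 CPM to 10.6, 8.72 and 10.2 CPM (log2 fold change -1.83, SE 0.22, edgeR adjusted p = 0.000396). Gbp5 fell by 2.87 on the log2 scale, Gbp7 by 1.21 and the immunity-related GTPase Irgm1 by 0.95 (edgeR adjusted p = 0.00172, 0.00805 and 0.00574). None of the 4 overlapped between the groups, as 47.8% of all tested genes did not, and the 4 were taken for their large changes. The expected counts of Gbp2 and Gbp5 were whole in all 6 libraries, while those of Gbp7 were not in LFA1-lo replicate 2 and LFA1-hi replicate 3, so the value of Gbp7 is less certain.

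Of 20 tested targets of IRF8 with PU.1, 10 were lower and 1 higher (median -0.30). Csf1r, Cd68 and Fcgr1 of this list are also among the macrophage markers. Csf1r, the M-CSF receptor, fell by 1.02 on the log2 scale, Ncf4, a subunit of the phagocyte NADPH oxidase, by 0.85, and the transcription factors Egr1 and Prdm1 by 2.50 and 1.69. Their edgeR adjusted p values were 0.000155, 0.00116, 0.000152 and 9.42e-05. Of 13 tested genes tied to IRF4 and alternative activation, 5 were lower and 1 higher (median -0.32), and the number lower became 8 when LFA1-lo replicate 2 was left out, 3 when LFA1-hi replicate 1 was, and 2 when LFA1-hi replicate 3 was. Ccl22, a chemokine for T cells, was at 3.82, 6.83 and 1.12 CPM in LFA1-lo and 0.0559, 0.191 and 0.112 CPM in LFA1-hi (log2 fold change -4.98, edgeR adjusted p = 0.00200). Chil3 (-3.67), Ccl24 (-2.08) and Kdm6b (-0.78) were called too, with adjusted p of 0.0631 for Chil3 without LFA1-hi replicate 1, 0.0505 for Ccl24 without LFA1-hi replicate 3, and 0.0585 and 0.0503 for Kdm6b without LFA1-hi replicates 1 and 3. In LFA1-hi Chil3 had 5, 0 and 13 counts and Ccl24 10, 8 and 5. The other 7 tested genes of the list were not called, among them Mrc1 (-0.32, edgeR adjusted p = 0.418) and Arg1 (1.06, 0.422, at 0 to 18 counts). Retnla, Ccl17 and Flt3 were at 0 in all 6 libraries. The list sum overlapped between the groups, at 1747, 1266 and 1917 CPM in LFA1-lo and 1357, 1420 and 1419 CPM in LFA1-hi.

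Of 13 cytokine and chemokine targets of IRF5, only 7 had enough counts to test, and Il6, Il12a and Il12b were at 0 in all libraries. Of the 7, 4 were lower and 1 higher (median -1.21). The summed level of the list overlapped between the groups, at 254, 274 and 176 CPM in LFA1-lo and 221, 175 and 168 CPM in LFA1-hi. Il1b, the inflammatory cytokine interleukin-1 beta, was at 3.64, 6.38 and 2.29 CPM in LFA1-lo and 0, 0.191 and 0.168 CPM in LFA1-hi (log2 fold change -5.04, edgeR adjusted p = 0.000912). Cxcl2, a neutrophil chemokine, fell by 2.85 on the log2 scale (edgeR adjusted p = 0.00824). Tnf, at -0.69, and Ccl4, at 0.45, were called with all libraries (edgeR adjusted p = 0.0300 and 0.0293) but each lost the call in 4 of the 6 fits without a library, where the adjusted p reached 0.124 for Tnf without LFA1-lo replicate 2 and 0.125 for Ccl4 without LFA1-hi replicate 1. The number lower was 2 without LFA1-hi replicate 3.

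**Figure D3:**
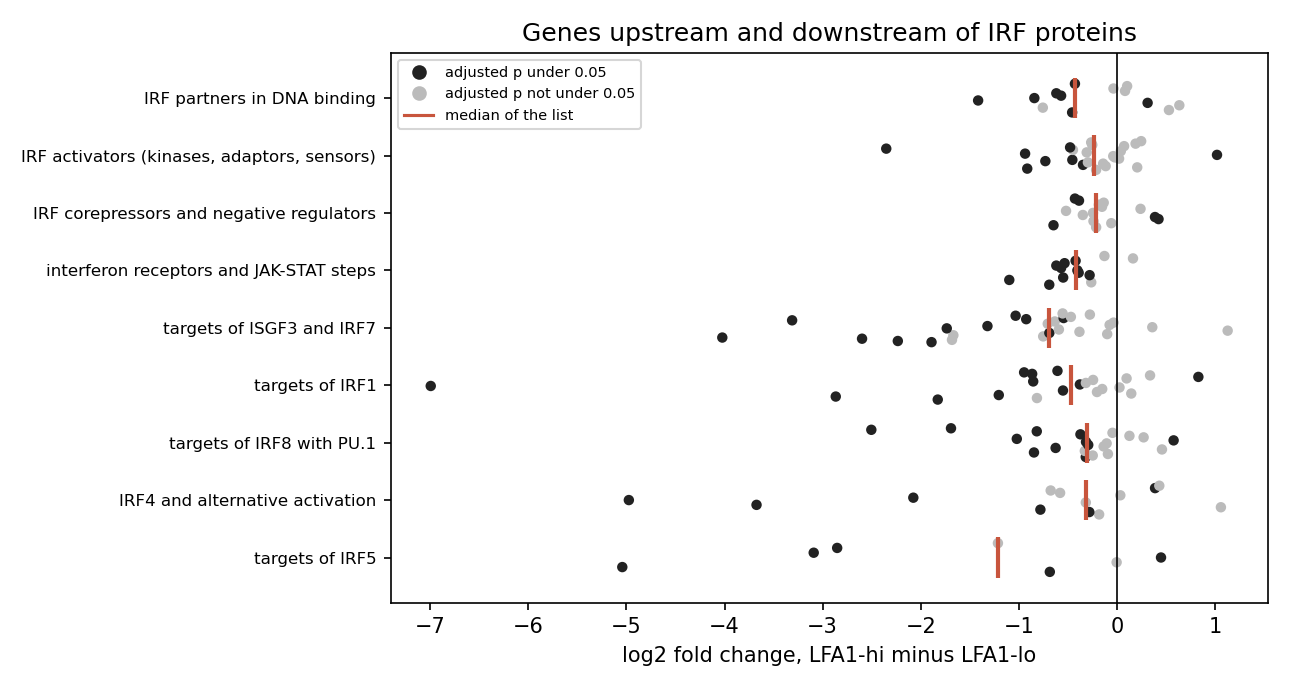
Log2 fold change (LFA1-hi minus LFA1-lo) of each tested gene in 9 lists of genes upstream and downstream of IRF proteins, with called genes in black and the list median as a red bar. The medians run from -1.21 for targets of IRF5 to -0.21 for corepressors and other regulators, a list that also holds Ep300 and Crebbp. The leftmost point, near -7, is Ciita, which was at 0 in all LFA1-hi libraries, so its fitted value depends on the prior count.

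The targets of ISGF3 and IRF7, the interferon-stimulated genes proper, were lowest in LFA1-lo replicate 1 within LFA1-lo, as Irf7 was, but not all of them fell to the LFA1-hi level there. Of 26 tested, 11 were lower in LFA1-hi and 0 higher (median -0.70), and with DESeq2 16 were lower and 1 higher. Leaving out LFA1-lo replicate 1 gave 21 lower, leaving out LFA1-lo replicate 2 or 3 gave 5 or 6, and leaving out LFA1-hi replicate 3 gave 7. Ifit3, an RNA-binding antiviral effector, was at 19.5, 77.0 and 53.1 CPM in LFA1-lo and 10.9, 7.64 and 6.10 CPM in LFA1-hi (log2 fold change -2.60, edgeR adjusted p = 0.0117). Cxcl10, a chemokine for activated T cells, was at 3.52, 16.02 and 8.11 CPM in LFA1-lo and 1.45, 0.255 and 1.01 CPM in LFA1-hi (log2 fold change -3.31, edgeR adjusted p = 0.00821). In both, LFA1-lo replicate 1 was the lowest of its group while still above LFA1-hi. Ifit3b (-4.02) and Ifit1 (-2.23) were also called (edgeR adjusted p = 0.00966 and 0.0144). Without LFA1-lo replicate 2 the adjusted p was 0.0547 for Ifit3b, 0.0587 for Ifit3 and 0.0834 for Ifit1, and without LFA1-lo replicate 3 it was 0.0544 for Ifit3 and 0.0561 for Ifit1. Ifit3 and Ifit3b are near copies, so their reads are uncertain. The expected counts of Ifit1 were not whole in LFA1-lo replicates 2 and 3 and LFA1-hi replicate 2, so its value is also less certain.

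Within LFA1-lo, all 26 of these targets were lowest in replicate 1, against 28.9% of all tested genes, and 14 of the 26 were there at less than 1 in 2 of the next library, against 1.62%. This count was made after the Irf7 values had been seen. The targets above the highest LFA1-hi library numbered 11 in LFA1-lo replicate 1, 25 in replicate 2 and 23 in replicate 3, against 39.6%, 38.7% and 38.8% of all tested genes. Their summed level was 1299, 2274 and 2025 CPM in LFA1-lo and 1239, 1147 and 1107 CPM in LFA1-hi. Of the 1299 CPM, Lgals3bp gave 401 and Parp14 285, and both were above every LFA1-hi library there. Single targets were spread widely in LFA1-lo replicate 1. Among those with a mean of at least 1 CPM in LFA1-hi, they ran from 0.0536 (Ifi44) to 2.38 (Ifit3) times the LFA1-hi mean. LFA1-lo replicate 1 thus lay near LFA1-hi for Irf7 and for the sum of these targets. For Irf1 it did not, with 73.8 CPM against 82.1 and 61.6 CPM in the other LFA1-lo libraries.

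Markers of neutrophils differed between the same libraries. The 7 matched markers, all detected, summed to 11.9, 35.8 and 41.8 CPM in LFA1-lo and 3.69, 3.95 and 5.49 CPM in LFA1-hi, with 3 of 4 tested called lower. Their part in the level of Irf7 and its targets was not tested.

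**Figure D4:**
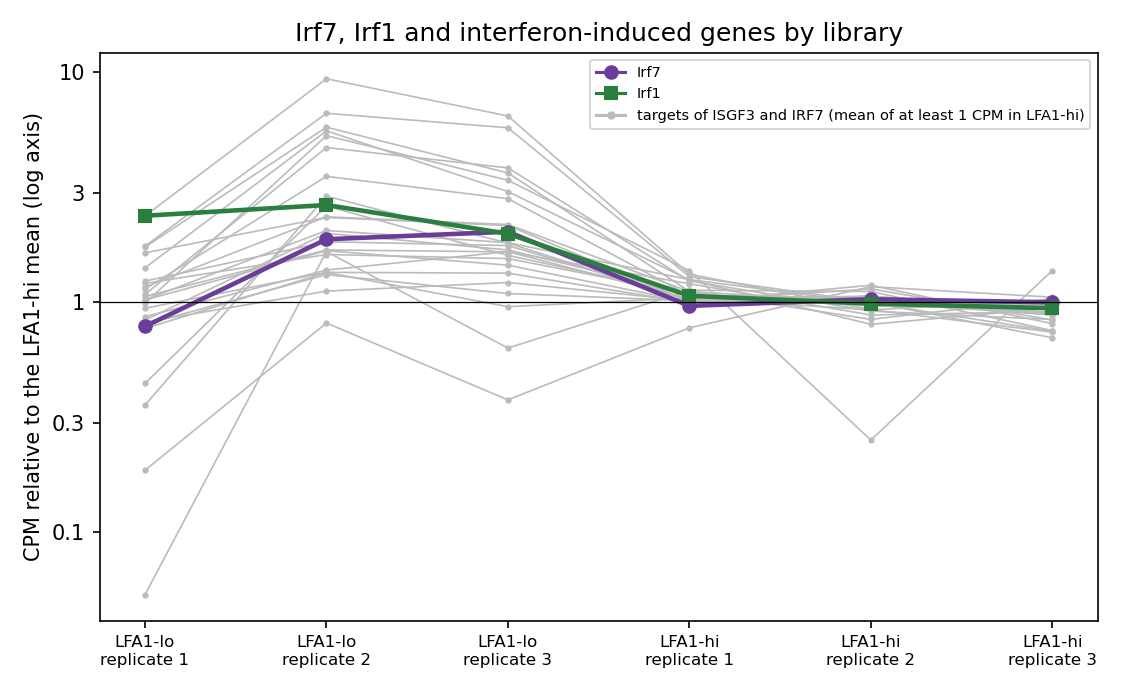
CPM relative to the LFA1-hi mean (log axis) in each library for Irf7 (purple), Irf1 (green) and those tested targets of ISGF3 and IRF7 with a mean of at least 1 CPM in LFA1-hi (grey), lines only joining the values of a gene. In LFA1-lo replicate 1 Irf7 is at 0.786 and Irf1 at 2.38, whereas in replicates 2 and 3 Irf7 is at 1.88 and 2.03.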

How the data were processed

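RNA sequencing gave 6 gene tables. Per the file headers, the deposited tables hold RSEM expected counts, which were not normalized, and TPM, which the authors' software scaled for transcript length and library size. The deposited FPKM values were not used. The deposited length columns, in bases and weighted by isoform per the file headers, show shifts between isoforms of unlike length. Tools named in the submitters' processing notes are bcl2fastq, Trim Galore and RSEM, with the build GRCm38, and versions are not given there.

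Expected counts were rounded, as 5.53% to 6.06% of genes in a library were not whole, filtered with filterByExpr, scaled by TMM (factors 0.956 to 1.034) and tested with robust edgeR 4.0.16 quasi-likelihood fits over 11692 genes (threshold 0.05, biological coefficient of variation 15.0%). The fit was checked on simulated data. Correlations use log2 CPM with a prior count of 2. Alternatives used DESeq2 1.42.0, limma 3.58.1 (voom, or trend on log2 of TPM + 0.1 or + 1), other scalings, filters and thresholds, a replicate block and each library left out. Coordinates are GRCm38, counted from 1, and sequences are from RefSeq windows.

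The members and gene lists were chosen with earlier results of these data known. The text names all 8 members, up to 4 called genes of each list with the largest changes and a mean of at least 1 CPM, and the 2 genes most correlated with each called member. Some genes that this rule takes are not reported here.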

Additional observations from a re-analysis of the deposited data

How the results depend on the processing

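The direction of all 8 members was the same under every alternative in which they were tested, and Irf4 was left out by the filter of 10 CPM in 3 libraries. The number of members lower was 3 at a threshold of 0.01 and 3 to 7 when a library was left out (3 without each LFA1-hi library, 4 without LFA1-lo replicate 1, 7 without LFA1-lo replicate 2 or 3). Over all genes, 1007 were higher and 1017 lower at 0.01, and 1169 to 2589 higher and 1099 to 2443 lower when a library was left out. Over the lists together, 64 genes were lower and 8 higher, with 41 to 68 and 4 to 19 when a library was left out. Scaling by library totals alone made 60.9% of calls higher, against 50.8%, moved the median by 0.06 on the log2 scale, and cost Irf3 its call (adjusted p = 0.0562) as well as Irf8. The cause of these changes was not tested, except that a left-out library leaves fewer samples.

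Same-numbered libraries did not deviate together (correlations 0.037, 0.018 and -0.072), so the numbers are not taken as pairs. With a replicate block 5 members were lower, Irf8 having an adjusted p of 0.0749, and over all genes 1692 were higher and 1561 lower. Over the lists 58 were lower and 9 higher with the block, with 7 lower and 1 higher among targets of ISGF3 and IRF7. Among the depth limits, Irf4 rests on 43 to 66 counts in LFA1-hi libraries, so its fold is the least precise of the called members (SE 0.21).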

Other observations

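A few genes of the lists were higher in LFA1-hi against the direction of the others. They were chosen here after their values were seen. Ly86, the partner protein of the receptor RP105, was at 55.0, 49.9 and 46.3 CPM in LFA1-lo and 82.0, 75.0 and 68.4 CPM in LFA1-hi (log2 fold change 0.58, edgeR adjusted p = 0.00276). It did not overlap between the groups. Jun rose by 0.31 on the log2 scale (edgeR adjusted p = 0.0129), but its call was lost without LFA1-hi replicate 1 or 2. Junb and Jund, of the same AP-1 family, fell and kept their calls without any single library.

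The gene most like Irf7 over the 6 libraries was Ddx60, an interferon-stimulated helicase, with a Pearson coefficient of 0.992. It was at 13.0, 23.2 and 24.1 CPM in LFA1-lo and 14.5, 14.1 and 14.8 CPM in LFA1-hi (log2 fold change -0.47, edgeR adjusted p = 0.128). Snd1 came next (0.986), at 180, 207 and 205 CPM in LFA1-lo and 182, 184 and 184 CPM in LFA1-hi (log2 fold change -0.11, edgeR adjusted p = 0.345). Both were picked for their likeness to Irf7, so their low values in LFA1-lo replicate 1 follow from that choice.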
